A study of Mus musculus with 6 samples.

Results

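The genes described here are 10 genes whose RNA is known to appear at the 2-cell stage of the mouse embryo, other than the Zscan4, Usp17 and Tdpoz genes of that stage: Zfp352, Tcstv1, Tcstv3, Sp110, Sp140, Ubtfl1, Arg2, Gm5662, Gm2022 and Gm12794. They were chosen by name, and all 10 were found among the 29431 genes of the authors' deposited table. Their RNA was read in 6 libraries of 4-cell mouse embryos that the labels call wild type. Of these, 3 were untreated controls and 3 received AXKO-0046, which inhibits LDHB, a subunit of lactate dehydrogenase that favours making pyruvate from lactate. The labels do not state strain, dose or length of exposure, and how many embryos went into a library is not clear from them. No label ties a replicate to its own litter or culture, and a p-value here covers no more than the spread between libraries, technical spread included. In whole embryos, fewer cells of a kind and less RNA per cell cannot be told apart.

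In the mouse, the embryonic genome is first broadly transcribed at the 2-cell stage. A group of genes is switched on there in a short burst, many of them by the homeobox factor Dux and from long terminal repeats of the endogenous retrovirus MERVL, and most of that RNA is gone soon after. The same burst marks rare cells in cultures of mouse embryonic stem cells that resemble the 2-cell embryo. The 10 genes are of several kinds. Gm2022 and Gm5662 carry terms for translation initiation factor activity in the authors' deposited table, and Tcstv1 and Tcstv3 are members of the variable group named after the 2-cell stage. Zfp352 encodes a zinc finger protein, Ubtfl1 an HMG-box protein needed by the mouse embryo around implantation, and Sp110 and Sp140 proteins of nuclear bodies best known from immune cells. Arg2 encodes the mitochondrial arginase, which splits arginine into ornithine and urea, and Gm12794 is a predicted gene whose terms in the authors' deposited table include negative regulation of transcription.

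Several of the 10 have near-identical copies in the genome, and this bears on their values. Gm2022 (ENSMUSG00000113971, chromosome 12, 87895370 to 87895804, plus strand, GRCm38) and Gm5662 (ENSMUSG00000079029, chromosome 12, 88270640 to 88274500, minus strand) lie 374.8 kb apart, and their coding sequences of 432 bases without the stop codon differ at 7 positions, an identity of 98.4%. Tcstv1 (ENSMUSG00000096284, chromosome 13, 119893388 to 119894785, minus strand) and Tcstv3 (ENSMUSG00000095821, chromosome 13, 120316878 to 120318178, plus strand) lie 422.1 kb apart, with coding sequences of 513 and 507 bases and an identity of 93.6%, gaps counted. The first 180 coding bases of each pair, taken from GENCODE M21, show how little a short read has to tell the copies apart. Capitals mark the positions at which the copies of a pair differ, 2 for the first pair and 5 for the second.
Gm2022: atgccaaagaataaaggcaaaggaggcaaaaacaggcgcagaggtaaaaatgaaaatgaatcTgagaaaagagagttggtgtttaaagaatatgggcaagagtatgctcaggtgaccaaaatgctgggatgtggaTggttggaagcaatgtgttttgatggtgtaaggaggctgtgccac
Gm5662: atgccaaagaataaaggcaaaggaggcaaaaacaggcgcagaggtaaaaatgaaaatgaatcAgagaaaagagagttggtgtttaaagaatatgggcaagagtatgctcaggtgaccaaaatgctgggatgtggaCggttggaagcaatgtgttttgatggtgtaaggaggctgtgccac
Tcstv1: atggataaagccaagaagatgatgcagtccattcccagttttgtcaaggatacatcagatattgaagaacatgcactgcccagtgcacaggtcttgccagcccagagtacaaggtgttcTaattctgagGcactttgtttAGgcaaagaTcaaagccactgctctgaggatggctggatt
Tcstv3: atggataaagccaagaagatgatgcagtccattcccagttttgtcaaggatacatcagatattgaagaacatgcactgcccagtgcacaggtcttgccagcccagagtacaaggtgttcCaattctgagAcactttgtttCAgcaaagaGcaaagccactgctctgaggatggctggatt

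Counted over all transcripts of GENCODE M21, at an identity of at least 95% over at least 50% of the transcript, Gm2022 had 18 near-identical genes, Gm5662 among them, and all 18 were in the table. Tcstv1 had 3 such genes, Tcstv3 had 2, and Gm5662, Gm12794, Zfp352 and Sp110 had 1 each. Sp140, Ubtfl1 and Arg2 had 0. No source used here says how reads that fit several copies were placed, so the level of each gene with a copy is uncertain, and Gm2022 and Gm5662 are not separate observations.

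Promoter sequence of RefSeq on GRCm38.p6, 250 bases before to 50 bases after a start site, was matched for 4 of the 10 genes: Zfp352, Sp110 with a pair of start sites, Sp140 and Ubtfl1. The 250 bases before the start are shown for Zfp352, whose window is built of a short repeat, and for comparison for the farther start of Sp110 and for Ubtfl1. Capitals mark TAATCC on either strand, letters bound by Otx-type homeobox proteins, which read as GGATTA on the other strand.
Zfp352, chr4:90218570-90218819, plus strand: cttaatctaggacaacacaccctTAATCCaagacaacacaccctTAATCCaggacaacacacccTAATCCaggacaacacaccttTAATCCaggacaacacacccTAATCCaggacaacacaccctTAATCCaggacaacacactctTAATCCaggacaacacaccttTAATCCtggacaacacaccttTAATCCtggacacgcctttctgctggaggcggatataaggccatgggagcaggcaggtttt
Sp110, chr1:85603892-85604141, minus strand: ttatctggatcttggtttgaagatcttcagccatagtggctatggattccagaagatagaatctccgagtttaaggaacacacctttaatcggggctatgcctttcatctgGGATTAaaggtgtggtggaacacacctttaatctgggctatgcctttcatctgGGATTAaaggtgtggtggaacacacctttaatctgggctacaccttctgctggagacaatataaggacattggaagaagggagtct
Ubtfl1, chr9:18404168-18404417, plus strand: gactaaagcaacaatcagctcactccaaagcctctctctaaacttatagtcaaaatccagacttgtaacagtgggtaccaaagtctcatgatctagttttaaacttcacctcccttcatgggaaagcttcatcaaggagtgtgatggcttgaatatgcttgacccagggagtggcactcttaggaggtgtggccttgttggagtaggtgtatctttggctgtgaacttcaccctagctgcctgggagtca

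The Zfp352 window held 9 copies of TAATCC, from 227 to 61 bases before the start and 20 to 21 bases apart. Of 32851 promoter windows 2320 (7.06%) held at least 1 copy, and 1 window, that of Zfp352, held 9. The farther Sp110 window held 2 copies, and 118 windows (0.359%) held 2 or more; the nearer Sp110 window held 1, and the windows of Sp140 and Ubtfl1 held 0. The Dux motif was found in 11 windows (0.0335%) and TGCACAC, the Zscan4 motif, in 1444 (4.40%), each searched on both strands. Neither was found in a window of these genes, which says only that these letters are not in these windows. No motif contains another, and a match is a description, not a site.

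The authors' deposited table gives FPKM, a fragment count scaled to library size and transcript length, but the depth behind it is unknown. Levels of different genes can be compared only roughly, since they depend on the annotated length. In GENCODE M21 the transcript of Gm2022 has 435 bases and that of Gm5662 has 1840. The library totals lay between 457016 and 524538 FPKM, and 20094 to 22142 genes were listed above 0. One library stood apart: inhibitor replicate 2 had a median correlation with the others of 0.888 across genes, which are not independent replicates, against 0.946 to 0.965 for the rest. Results that rest on it are therefore given with and without it. All 10 listed markers of oocyte and early embryo were in the table, and Dppa3 made up nearly all of their summed level. Dppa3 was lowest in inhibitor replicate 2, at 10514 FPKM against 13054 to 18144 FPKM elsewhere. Zp3 was lowest there too, at 18.6 FPKM against 19.7 to 34.8 FPKM elsewhere. Khdc3 (16.5 FPKM) and Zbed3 (9.87 FPKM) were second highest there, and for the other listed markers that library ranked in between. Markers of cumulus and granulosa cells summed to between 0.0203 and 1.23 FPKM over the 7 of 12 listed, with Foxl2 and Fshr at 0 in 5 libraries each. Of 9 white blood cell markers 5 were listed, and Cd68 alone reached 1 FPKM on average, with Cd3e at 0 in 5 libraries.

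Of the 10 genes 6 had very high RNA in inhibitor replicate 2 and low RNA elsewhere. The Gm2022 level was 3.20, 2.61 and 2.67 FPKM in control replicates 1 to 3, against 10.1, 800.4 and 3.61 FPKM in inhibitor replicates 1 to 3, the order used for every gene here. The controls lay close together, and each inhibitor library lay above them, but the second stood 78.9-fold over the next highest library. Gm5662 read 10.2, 24.6 and 8.76 FPKM in controls, against 12.7, 848.6 and 9.31 FPKM in treated embryos. Here control replicate 2 was the next highest, and without inhibitor replicate 2 the groups overlapped. In that library Gm5662 ranked 73rd and Gm2022 81st of all genes listed, while elsewhere both ranked between 2105 and 6685.

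The copies of Gm2022 shared its highest library. The second highest was control replicate 2 in 6 of the 18, control replicate 1 in 1 and inhibitor replicate 1, as for Gm2022, in most. Gm10264 had no second highest library, as it was listed at 0 in every library but inhibitor replicate 2. Over Gm2022 and its 18 near-identical genes the median level was 1.69, 2.61 and 1.95 FPKM in controls, against 5.50, 417.9 and 1.92 FPKM in treated embryos. In inhibitor replicate 2, the highest library for all 18 copies, they ran from 3.26 FPKM for Gm10264 to 2244 FPKM for Gm8332. The ratio of Gm2022 to Gm5662 was 0.943 there, between 0.106 and 0.312 in controls, and 0.797 and 0.387 in inhibitor replicates 1 and 3, so the shares of the copies differed between libraries as listed. By contrast Eif1a, Eif1ax and Eif1ad, the annotated genes of the EIF1A family fixed for comparison, had a summed level of 367.2 FPKM in inhibitor replicate 2 and 260.7 to 333.7 FPKM elsewhere. All 3 had fold changes of inhibitor over control above 0, with or without inhibitor replicate 2, as 57.1% and 53.9% of all genes tested did. None passed, and the smallest p was that of Eif1ad (log2 fold change 0.39, SE 0.17, limma adjusted p = 0.589).

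Tcstv1 read 0.506, 2.06 and 1.08 FPKM in controls, against 8.91, 41.1 and 0.0464 FPKM in treated embryos. Inhibitor replicate 1 was the second highest library and inhibitor replicate 3 the lowest, so the treated libraries spanned the whole range. Tcstv3 read 3.93, 8.96 and 5.63 FPKM in controls, against 8.32, 154.1 and 0.628 FPKM in treated embryos. It was likewise highest in inhibitor replicate 2 and lowest in inhibitor replicate 3. Tcstv3 was the higher of the pair in 5 libraries, by 3.75-fold to 13.5-fold, and in inhibitor replicate 1 the ratio was 0.934.

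Gm12794 (ENSMUSG00000070890, chromosome 4, 101940407 to 101943183, plus strand) was at 0.577, 1.10 and 0.956 FPKM in controls, and at 1.03 and 121.1 FPKM in inhibitor replicates 1 and 2, while it was listed at 0 in inhibitor replicate 3. Its level in inhibitor replicate 2 was 110.4-fold over the next highest library, the largest such ratio among the 10. Its near-identical gene Gm12800 reached 28.2 FPKM in that library and stayed at or under 0.641 FPKM in the rest. Zfp352 (ENSMUSG00000070902, chromosome 4, 90218820 to 90225702, plus strand) read 0.415, 8.44 and 0.266 FPKM in controls, against 3.07, 55.0 and 1.06 FPKM in treated embryos. It was the gene with the widest spread among controls for its mean, where replicate 2 lay far above the others.

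**Figure D1:**
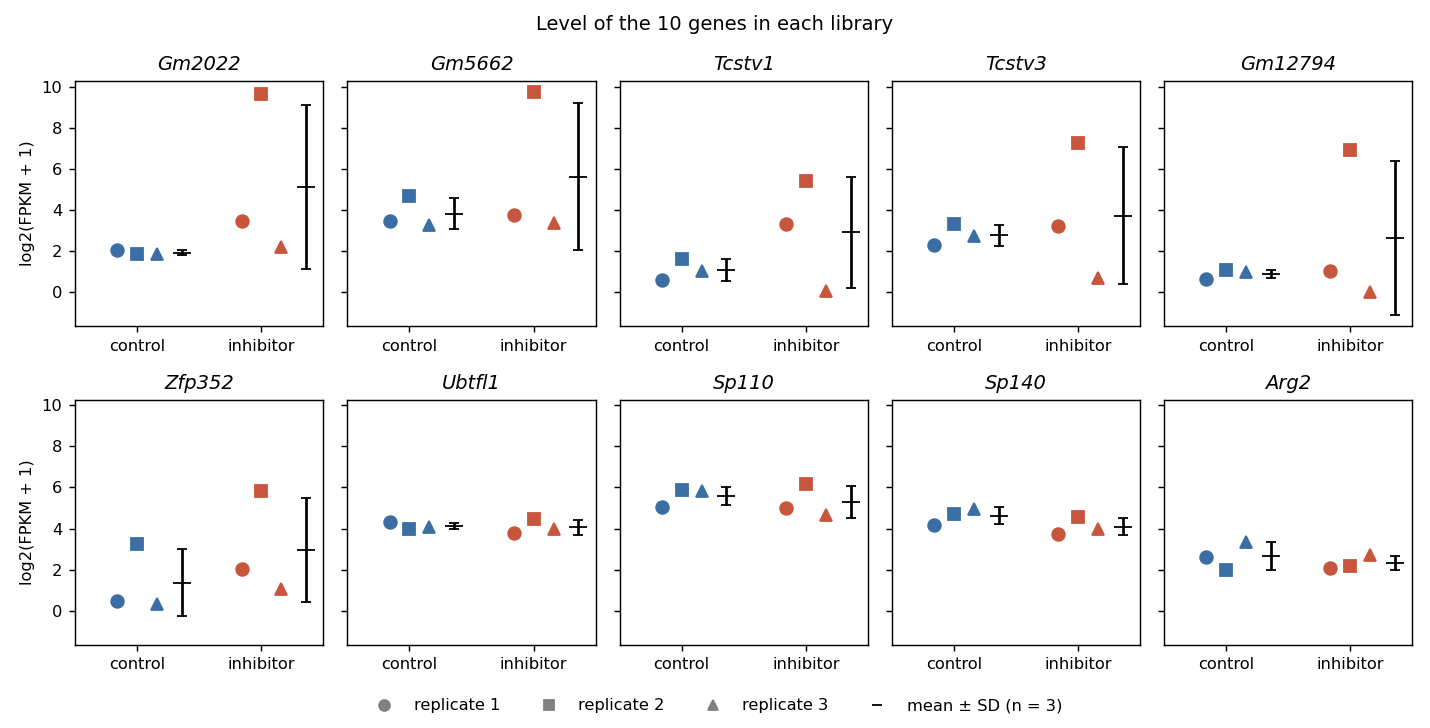
Level of each of the 10 genes as log2(FPKM + 1), with 1 point per library (blue: control, red: inhibitor; the shape gives the replicate number) and the mean ± SD of 3 libraries in black beside each group. In the first 6 panels inhibitor replicate 2 lies far above the other 5 libraries. In the last 4 panels no library stands so far apart.

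The other 4 genes did not follow that pattern. Ubtfl1 (ENSMUSG00000074502, chromosome 9, 18404418 to 18413177, plus strand) read 18.9, 15.01 and 15.7 FPKM in controls, against 12.6, 21.3 and 14.7 FPKM in treated embryos. It had the narrowest spread, with inhibitor replicate 2 the highest at 1.13-fold over control replicate 1. Arg2 (ENSMUSG00000021125, chromosome 12, 79130777 to 79156301, plus strand) read 5.21, 3.01 and 9.20 FPKM in controls, against 3.27, 3.55 and 5.63 FPKM in treated embryos. Control replicate 3 was the highest and control replicate 2 the lowest, so the inhibitor libraries lay within the range of the controls. Annotated antisense genes, Gm48780 and Vti1b, overlap Arg2, and the labels mention no strand, so their reads cannot be told apart.

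By their GENCODE starts, 1561 bases apart, Sp110 and Sp140 lie head to head on chromosome 1 (Sp110: ENSMUSG00000070034, 85576899 to 85598817, minus strand; Sp140: ENSMUSG00000070031, 85600378 to 85645037, plus strand). The farther RefSeq start of Sp110, whose promoter is shown above, lies within the Sp140 gene. From that start the pair would overlap on opposite strands. Sp110 read 32.6, 57.3 and 55.5 FPKM in controls, against 31.3, 69.7 and 24.5 FPKM in treated embryos. Sp140 read 16.9, 25.5 and 30.1 FPKM in controls, against 12.5, 22.5 and 14.9 FPKM in treated embryos. In both, inhibitor replicates 1 and 3 were the lowest libraries, and inhibitor replicate 2 lay among or above the controls. Sp110 was the higher of the pair in each library, by 1.65-fold to 3.10-fold. Its near-identical gene Gm15753 read 20.8, 40.0 and 38.6 FPKM in controls, against 28.6, 39.2 and 19.3 FPKM in treated embryos, and reads that fit both cannot be assigned from these values. Each of the pair is also overlapped by annotated genes on the opposite strand. Sp100, the founding member of their protein family, was at most 0.0474 FPKM in the 6 libraries.

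How unusual inhibitor replicate 2 was for these genes was read against the 9691 genes that averaged 1 FPKM or more, a level that all 10 genes reached, Gm12794 only through inhibitor replicate 2 itself. It was the highest library in 8 of the 10 genes and in 26.5% of all genes tested, the exceptions being Sp140 and Arg2, both highest in control replicate 3. It was at least 4-fold over the next highest library in 6 of the 10 and in 2.76% of all genes tested, where each of the other libraries was so in at most 0.124%. With genes kept by their mean over the other 5 libraries, a filter chosen after seeing the data, 9 of the 10 remained: inhibitor replicate 2 was the highest in 7 of the 9, against 23.9% of 9476 genes, and at least 4-fold over the next in 5, against 1.33%. On the log2(FPKM + 1) scale its ratio to the median of the other 5 libraries was 7.58 for Gm2022, 6.24 for Gm5662, 5.96 for Gm12794, 4.77 for Zfp352, 4.55 for Tcstv3 and 4.34 for Tcstv1. Of all genes tested 1.27% had a ratio as high as that of Tcstv1, the lowest of these. The ratio was 1.07 for Sp110, 0.48 for Ubtfl1, 0.39 for Sp140 and -0.45 for Arg2, while the median of all genes tested was 0.078. The 6 genes are not independent of one another, since they include copies, and the genes were chosen with earlier results of these data known.

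**Figure D2:**
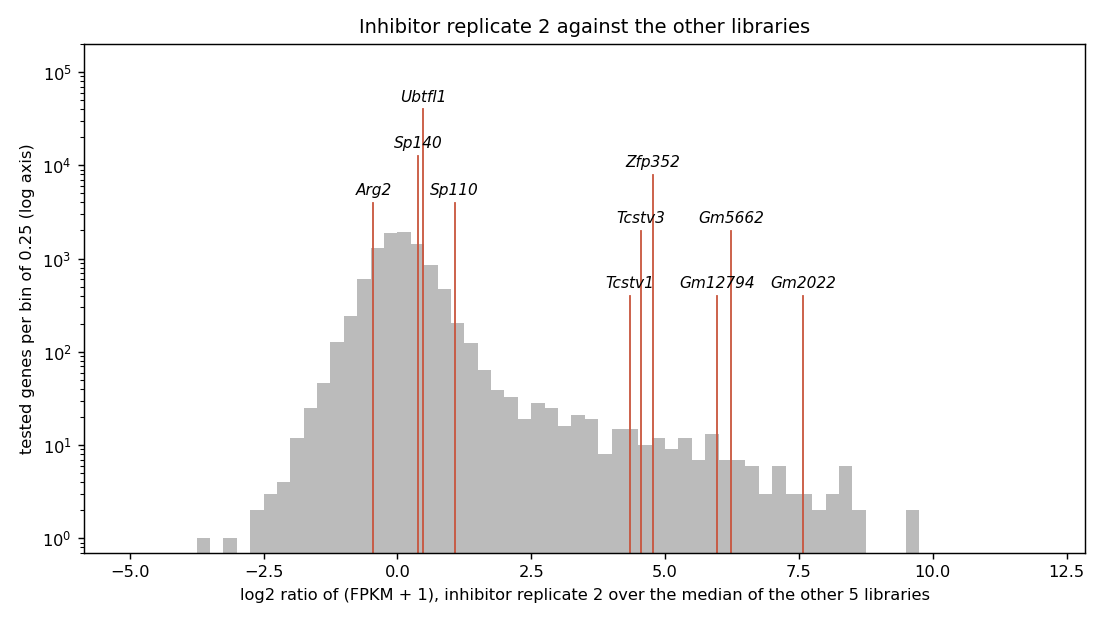
Number of tested genes (log axis, grey bars) by the log2 ratio of FPKM + 1 in inhibitor replicate 2 to that of the median of the other 5 libraries, in bins of 0.25, with red lines at the 10 genes, whose height only places the names. Of the genes 6 lie at 4.34 or above, in the sparse right tail, and Arg2, Sp140, Ubtfl1 and Sp110 lie between -0.45 and 1.07.

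Summed over the 10 genes, inhibitor replicate 2 held 2137 FPKM, or 0.429% of all FPKM, and the other libraries held 74.3 to 148.6 FPKM, or 0.0163% to 0.0291%. The second highest library was control replicate 2, which was also the runner-up in 6 of the 10 genes. Inhibitor replicate 3 held the least and was the lowest library for Tcstv1, Tcstv3, Sp110 and Gm12794. Ubtfl1, Sp110, Sp140 and Arg2 together made up 117.1 FPKM in inhibitor replicate 2 and 59.7 to 110.5 FPKM elsewhere.

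The study's comparison was between inhibitor and control. None of the 10 genes passed in limma, which was fitted on log2(FPKM + 1) across all 9691 genes with Benjamini-Hochberg adjustment at 0.05, where 0% of genes were called. Before adjustment, at a p under 0.05, 0 of the 10 passed, against 8.51% of all genes tested (4.72% higher and 3.8% lower). Of the 10, 6 had fold changes above 0, as 57.1% of all genes tested did, 5 had a log2 fold change of at least 1, against 3.06%, and 0 had one of -1 or below, against 1.03%. The mean Gm2022 level was 2.83 ± 0.323 FPKM for controls, against 271.4 ± 458.1 FPKM for treated embryos (SD, n = 3). Its log2 fold change was 3.18 (SE 2.11, 95% interval -2.35 to 8.70, limma adjusted p = 0.710), and its 3 inhibitor libraries lay above the 3 controls. Groups that did not overlap in that order were seen in 9.13% of genes tested, and 1 of 10 is near that background; in the opposite order it was 0 of 10, against 6.26%, and in either order 1 of 10, against 15.4%. In the authors' deposited table Gm2022 is the one of the 10 that is marked as changed, with a log2 fold change of group means of 6.59 and a q-value of 0.0320. The authors marked 0.792% of the genes listed.

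The remaining genes that were high in inhibitor replicate 2 gave fold changes above 0 with intervals that reached well below it. The log2 fold change was 1.84 for Tcstv1 (SE 1.44, limma adjusted p = 0.735), 1.81 for Gm5662 (SE 1.93, limma adjusted p = 0.802) and 1.75 for Gm12794 (SE 1.99, limma adjusted p = 0.812). Zfp352 was at 1.60 (SE 1.59, limma adjusted p = 0.789) and Tcstv3 at 0.95 (SE 1.78, limma adjusted p = 0.895). In the authors' deposited table these 5 have q-values of 0.345 for Gm5662, 0.529 for Tcstv1, 0.549 for Gm12794, 0.739 for Tcstv3 and 0.900 for Zfp352.

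The remaining 4 had fold changes below 0 that did not pass either. The mean Sp140 level was 24.2 ± 6.70 FPKM for controls, against 16.6 ± 5.24 FPKM for treated embryos (SD, n = 3), a log2 fold change of -0.52 (SE 0.29, 95% interval -1.18 to 0.14, limma adjusted p = 0.646). Arg2 was at -0.33 (SE 0.36, limma adjusted p = 0.802), Sp110 at -0.31 (SE 0.40, limma adjusted p = 0.832) and Ubtfl1 at -0.053 (SE 0.24, limma adjusted p = 0.964), or 0.047 after rescaling every library to the same total. In the authors' deposited table the q-values of these 4 run from 0.591 for Sp140 to 0.995 for Sp110 and Ubtfl1. The interval for Ubtfl1, from -0.60 to 0.50, was the narrowest of the 10.

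Without inhibitor replicate 2 the directions changed. Of the 10 genes 3 then had fold changes above 0, as 53.9% of all genes tested did, and 7 had them below. Their median was -0.25, where all 6 libraries gave 1.27. The median over all genes tested was 0.032 and 0.062, in that order. Gm5662 moved to -0.25 (SE 0.42), Gm12794 to -0.39 (SE 0.36) and Tcstv3 to -0.82 (SE 0.68), while Zfp352 stood at 0.17 (SE 0.83), Tcstv1 at 0.60 (SE 0.83) and Gm2022 at 0.91 (SE 0.38). Sp110 moved to -0.74 (SE 0.29) and Sp140 to -0.75 (SE 0.28), and for Sp110, Sp140 and Ubtfl1 the remaining 2 inhibitor libraries lay below all controls, as in 11.3% of genes tested; for Gm2022 they lay above, as in 14.8%. At an unadjusted p under 0.05 Gm2022 was higher and Sp110 and Sp140 were lower, 3 of 10, against 9.18% of all genes tested, and none passed after adjustment (limma adjusted p = 0.539 for Gm2022, 0.520 for Sp110 and 0.519 for Sp140).

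**Figure D3:**
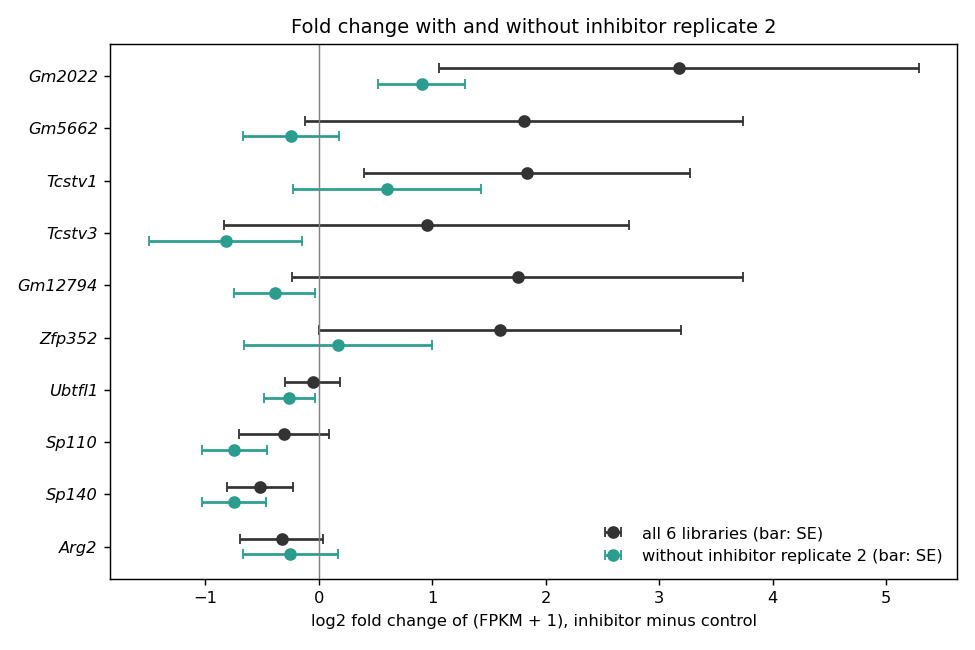
Log2 fold change of FPKM + 1, inhibitor minus control, for each gene, fitted with all 6 libraries (black) and without inhibitor replicate 2 (green), with bars of 1 SE. For the first 6 genes the estimate drops and the bar shortens once that library is left out; Gm5662, Tcstv3 and Gm12794 cross 0.

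Other single libraries also moved the estimates. The Zfp352 fold change was 1.17, 2.54 and 1.09 on leaving out control replicates 1, 2 and 3 in turn, and 2.06 and 2.56 on leaving out inhibitor replicates 1 and 3. Without inhibitor replicate 3 Tcstv3 was at 2.47, Tcstv1 at 3.27, Gm12794 at 3.08, Gm5662 at 2.94 and Gm2022 at 4.63. Arg2 rested on control replicate 3, without which its fold change was 0.018.

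The wider 2-cell programme was read from a list of 44 other genes of that stage, of which 38 were in the table and 37 were tested. The list holds near-identical copies of Gm2022 (Gm2016, Gm8300, Gm5039 and Gm21319) and of Tcstv1 (AF067061). It also holds several members each of the Zscan4, Usp17 and Tdpoz genes, so the 37 are not separate observations. In 36 of the 37 inhibitor replicate 2 was the highest library, against 26.5% of all genes tested. In 27 it was at least 4-fold over the next, against 2.76%. Of the 37, 14 passed the filter on low values only through that library, so for them these counts were set by the filter, and their fold changes share that limit. Among the 23 that averaged 1 FPKM or more in the other 5 libraries it was the highest in 22, against 23.9% of all genes kept by that filter. It was at least 4-fold over the next in 13, against 1.33%. The summed level of the 38 was 5810 FPKM in inhibitor replicate 2 and 164.0 to 491.4 FPKM elsewhere, with control replicate 2 again second. The fold change was above 0 in 36 of the 37, against 57.1% of all genes tested, their median being 1.53. Leaving out inhibitor replicate 2 gave 23 above and 14 below, their median being 0.12, where 53.9% of all genes tested lay above 0. In limma 0 of the 37 passed, with 0 at an unadjusted p under 0.05, against 8.51% of all genes tested. The smallest p belonged to AF067061 of the Tcstv group (log2 fold change 2.26, SE 1.13, limma adjusted p = 0.633), followed by Gm6763 and Gm4340. Duxf3, the gene of Dux, averaged under 1 FPKM and was not tested. It reached 2.86 FPKM in inhibitor replicate 2 and 0.529 FPKM in the third, and was listed at 0 in the other 4 libraries.

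**Figure D4:**
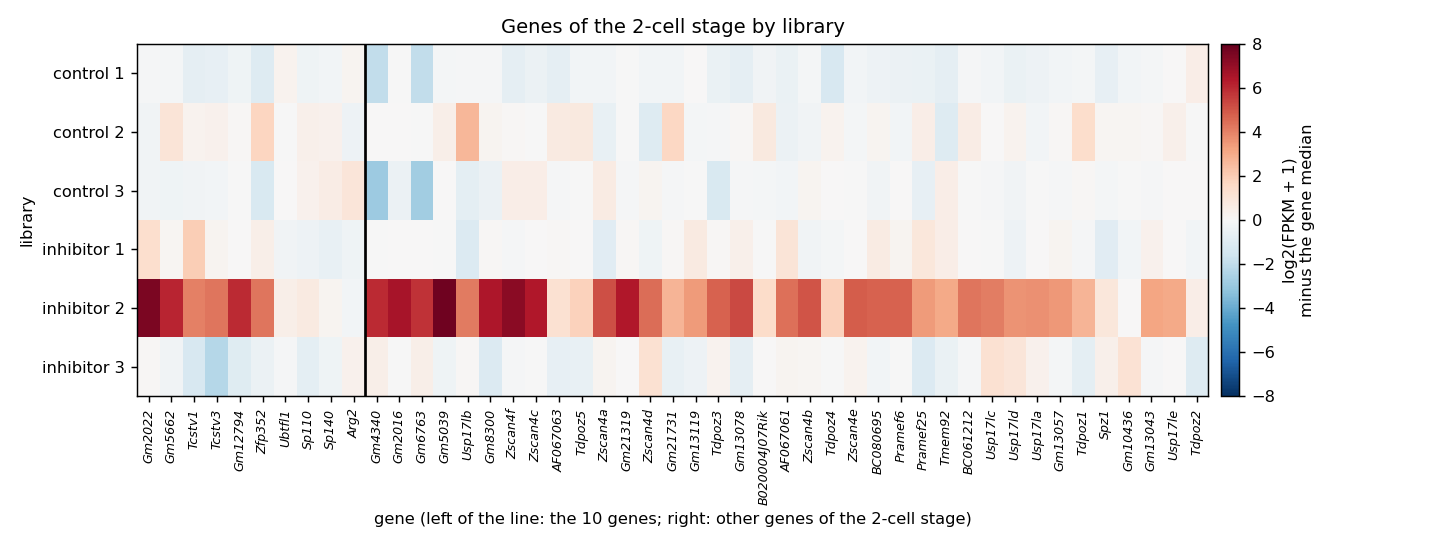
Level of the 10 genes (left of the black line) and of 37 other tested genes of the 2-cell stage (right) in each library, as log2(FPKM + 1) minus the median of the gene over the 6 libraries. Inhibitor replicate 2 is the highest library in 8 of the 10 genes and in 36 of the 37 others, against 26.5% of all genes tested. Gm12794 and 14 of the 37 passed the filter on low values only through that library, which limits these counts. With genes kept by the mean of the other 5 libraries it is the highest in 7 of 9 and in 22 of 23, against 23.9%. The exceptions are Sp140, Arg2 and Gm10436.

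Known regulators of the programme did not share this pattern as a group. Of 24 listed, 22 were tested: 13 fold changes lay above 0 and 9 below, their median being 0.057, where 57.1% of all genes tested lay above 0. Without inhibitor replicate 2 there were 9 above and 13 below, their median being -0.10, where 53.9% of all genes tested lay above 0. Inhibitor replicate 2 was the highest library in 7 of the 22, or 31.8%, near the 26.5% of all genes tested. It was at least 4-fold over the next in 1, or 4.55%, against 2.76%, the homeobox gene Obox3, with 27.5 FPKM in that library and 1.24 to 4.02 FPKM in the rest. Dppa2 and Dppa4, maternal activators of Dux, were at 391.6 and 304.9 FPKM in that library, the lowest of the 6 for both. None of the 22 passed in limma, and 1, the zinc finger repressor Zfp281, had a p under 0.05 before adjustment (log2 fold change -0.70, SE 0.25, limma adjusted p = 0.511), where 3.8% of all genes tested were lower at that p. It read 7.11, 11.97 and 7.97 FPKM in controls, against 4.89, 5.52 and 4.69 FPKM in treated embryos, and the groups did not overlap, as in 6.26% of genes tested in that order.

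Genes around Arg2, Ubtfl1 and Sp110 were read from fixed lists too. Of 14 genes of arginine and polyamine metabolism 13 were in the table and 9 were tested: 5 fold changes lay above 0 and 4 below (6 and 3 without inhibitor replicate 2), and 0 passed. Arg1, the cytosolic arginase, read 39.1, 46.7 and 53.3 FPKM in controls, against 34.8, 27.0 and 26.1 FPKM in treated embryos. All its inhibitor libraries lay below the controls, as in 6.26% of genes tested. The log2 fold change was -0.64 (SE 0.20, unadjusted p = 0.0122 and adjusted p = 0.452 in limma), and 3.8% of all genes tested were lower at a p under 0.05. Ubtf, the paralogue of Ubtfl1 that acts with RNA polymerase I, and 5 partners were tested: 5 fold changes lay above 0 and 1 below (3 and 3 without inhibitor replicate 2), and 0 passed. Of the SP100 family and nuclear body genes 3 of 5 were tested: 2 fold changes lay above 0 and 1 below, with or without inhibitor replicate 2, and 0 passed. Of 9 transcripts that rise towards the 8-cell and morula stages 5 were tested: 2 fold changes lay above 0 and 3 below (3 and 2 without inhibitor replicate 2), and 0 passed. Nearly all of their summed level was Dppa5a, which was lowest in inhibitor replicate 2, at 3116 FPKM against 3429 to 4440 FPKM elsewhere. In that library Tfap2c was at its highest, with 13.1 FPKM against 8.24 to 11.5 FPKM elsewhere, while Nanog, at 4.97 FPKM, lay within its range of 2.57 to 5.59 FPKM elsewhere. Whether embryonic stage plays a part in the values of that library was not tested.

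Likeness of pattern was measured by the Pearson correlation of log2(FPKM + 1) over the 6 libraries, as a description. Where 1 library lies far above the rest, as for Gm2022, Gm5662 and Gm12794, 195, 225 and 209 tested genes reached a correlation of 0.95, so likeness there says little more than that both are high in that library. The gene most like Gm2022 was Rbm4b (0.999), that most like Gm5662 was Spopfm2 (0.998) and that most like Gm12794 was Gm8332 (0.999), itself a near-identical copy of Gm2022. Tcstv3 was closest to its own copy Gm21818 (0.996), Tcstv1 to Tut1 (0.996) and Zfp352 to Gm25540 (0.997). For these, in that order, 90, 102 and 56 tested genes reached 0.95, so the same limit holds. For the evenly expressed genes far fewer reached 0.95, 18 for Sp110, 13 for Sp140, 8 for Arg2 and 5 for Ubtfl1. Their closest genes were Phf21a (0.992), Gm10658 (0.991), Adora2b (0.980) and Fancf (0.983), in that order.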

How the data were processed

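Per the labels' protocols, complementary DNA primed with oligo(dT) was amplified, fragmented and read from both ends. The submitters' processing notes name GRCm38 and the tools edgeR, DESeq2, StringTie 2.1.6, HISAT2 2.2.1 and cutadapt 1.9, without their roles. The deposited table holds FPKM for each gene in each library and, per the file headers, a fold ratio, its log2, a p-value and a q-value per gene. The ratio is that of the group means, and the authors' mark goes with a q under 0.05 and a log2 fold change of 1 or more in size, which was checked on the table. Without counts, no counting interval can be given.

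Sample titles gave group and replicate number, by which columns were matched. The fit used log2(FPKM + 1), a scale that shrinks the change of low genes, and took the 9691 genes that averaged 1 FPKM or more, with limma 3.58.1 (R 4.3.3) and a trended, robust prior. The 10 genes and all lists were chosen with earlier results of these data known. Named were the 10 genes, of each list up to 4 with the smallest p, the most similar genes and near-identical copies, found with BLAST 2.17.0. Named outside this rule, after their values were seen, were Dppa2, Dppa3, Khdc3, Obox3, Duxf3, Sp100, Foxl2, Fshr, Cd3e and Gm10436. On simulated data for the inhibitor comparison, with 9400 genes tested, the fit recovered 17.9% of genes changed by 1 on the log2 scale and 74.7% of those changed by 2, with 2 calls on unchanged genes. The simulated noise was normal, independent between genes and equal in all libraries of a gene. No library stood apart in it, so these shares need not hold for genes that are high in inhibitor replicate 2. Alternatives covered pseudocount, filter, scaling, library weights, prior, replicate block and each library left out; a filter on the mean of the other 5 libraries was added after seeing the data. The enrichment tables were not used here. Python 3.11.15 and matplotlib 3.10.9 drew the plots.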

Additional observations from a re-analysis of the deposited data

How the results depend on the processing

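Over the 16 alternatives 0 of the 10 genes were called in limma (lowest adjusted p = 0.280, for Tcstv1 without inhibitor replicate 3). At an unadjusted p under 0.05 some passed in single alternatives. Tcstv1 did so without inhibitor replicate 3 (limma unadjusted p = 0.0027), where 748 of all genes tested were higher and 431 lower. Sp140 did so with quantile normalization (limma unadjusted p = 0.0438) and without control replicate 1 (0.0386), where 543 and 293 were lower. Gm2022, Sp110 and Sp140 did so without inhibitor replicate 2, as given above, and Zfp352 with the replicate block below. Over all genes tested the number of calls was 0 in every alternative but the leave-one-out fits, where it ran from 0 to 12; it was 12 on leaving out inhibitor replicate 1, 1 on leaving out the second, and none of these calls was among the 10 genes. Zfp352, Tcstv1, Gm2022, Sp110 and Sp140 kept their sign in all 16 alternatives. Without inhibitor replicate 2 the sign turned for Tcstv3 (-0.82), Gm5662 (-0.25) and Gm12794 (-0.39). Ubtfl1 was at 0.047 after rescaling every library to the same total, 0.040 on leaving out control replicate 1 and 0.10 on leaving out inhibitor replicate 1; Arg2 was at 0.018 without control replicate 3. That rescaling shifted the median of all genes tested to 0.16, against 0.062 as reported. Leaving out single libraries gave log2 fold changes of -0.82 to 2.47 for Tcstv3, -0.25 to 2.94 for Gm5662, -0.39 to 3.08 for Gm12794, -0.26 to 0.10 for Ubtfl1 and -0.66 to 0.018 for Arg2. With the replicate number as a replicate block 0 genes were called and the pairing changed no adjusted call. In the block fit 1 of the 10 genes had an unadjusted p under 0.05 in limma, where none had in the main fit. Of all 9691 genes tested 485 were higher and 392 lower at that p in the block fit. The gene was Zfp352 (SE 0.38 against 1.59, unadjusted p = 0.0064 and adjusted p = 0.536 in limma). Zfp352 was higher under the inhibitor in 3 of 3 same-numbered pairs. The deviations of same-numbered libraries correlated at 0.136, 0.202 and 0.037, in the order of the replicate numbers. Those for replicates 1 and 2 were the highest of all pairs of a control and an inhibitor library. Pairs with unlike numbers ran from -0.194 to 0.055, the latter for control replicate 3 with inhibitor replicate 1. These correlations are weak and do not settle whether the numbers pair the libraries. No label states a pairing, and the main fit used none. With a mean of at least 5 FPKM Arg2 was not tested. With 3 libraries a group and an unknown depth, small differences cannot be shown, and the near-identical copies limit what the level of a single gene means.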
